A study of Mus musculus with 6 samples.

Results

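Acute-phase carriers and inter-alpha-trypsin inhibitor heavy chain (ITIH) genes were followed in mouse liver 1 h after an injection of interleukin-6 (IL-6). The set held 10 genes chosen by symbol, Hp, Hpx, Cp, Lbp, Lrg1, Itih1, Itih2, Itih3, Itih4 and Pzp, out of 19938 genes with a probe set of their own. Each of the 10 was read by 1 probe set, so all were measured. The tested animals were 10-week-old male C57BL6 mice fasted for 16 h and given 100 ng of IL-6 intraperitoneally, and the controls were mice of the same strain, sex, age and fast given saline. There were 3 arrays from IL-6 livers and 3 from saline livers, each of whole liver with all its cell types. The labels do not state that each array was a separate mouse. The p-values therefore cover the spread among these arrays, which may be technical. Values are log2 expression per probe set, and a difference is the IL-6 mean minus the saline mean on that scale.

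IL-6 binds its receptor together with gp130 on hepatocytes and activates the transcription factor STAT3, which raises the secretion of plasma proteins known as positive acute-phase proteins. Several of these are carriers. Haptoglobin (Hp) captures free hemoglobin and hemopexin (Hpx) captures free heme, and both complexes are then cleared by receptors. Ceruloplasmin (Cp) carries copper and oxidises iron, and Lbp passes bacterial lipopolysaccharide to CD14. The ITIH proteins are heavy chains of which some are joined to the small inhibitor bikunin and passed on to hyaluronan in the extracellular matrix, and Pzp is a macroglobulin-type protease inhibitor of mouse plasma.

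Promoter sequences are shown for the pair of genes with the largest differences, Lrg1 and Itih4, and for Itih3 and Itih1, which follow Itih4 directly on chromosome 14. They come from RefSeq on assembly GRCm38.p6, run 5′ to 3′ on the strand of the gene, and span 250 bases before to 50 bases after its start. Windows were found for 8 of the 10 genes, 9 windows in all. None was available for Hp and Lbp, which were therefore not searched for motifs. The regions are chr17:56121897-56122196 on the minus strand for Lrg1, chr14:30886226-30886525 on the plus strand for Itih4, and chr14:30923538-30923837 and chr14:30943240-30943539, both on the minus strand, for Itih3 and Itih1. Capitals mark every match, on either strand, to 6 motifs searched: TTCNNNGAA (STAT), CTGGGAA (core of the acute-phase response element), TTGCNNAA (C/EBP), GTTAAT (part of the HNF1 site), TGACTCA (AP-1) and an NF-kappaB motif.
Lrg1: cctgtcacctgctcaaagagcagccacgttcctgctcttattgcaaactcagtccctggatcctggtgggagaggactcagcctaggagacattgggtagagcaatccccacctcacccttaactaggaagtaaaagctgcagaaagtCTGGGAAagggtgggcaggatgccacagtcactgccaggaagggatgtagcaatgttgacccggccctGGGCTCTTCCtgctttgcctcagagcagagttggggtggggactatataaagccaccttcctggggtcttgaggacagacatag
Itih4: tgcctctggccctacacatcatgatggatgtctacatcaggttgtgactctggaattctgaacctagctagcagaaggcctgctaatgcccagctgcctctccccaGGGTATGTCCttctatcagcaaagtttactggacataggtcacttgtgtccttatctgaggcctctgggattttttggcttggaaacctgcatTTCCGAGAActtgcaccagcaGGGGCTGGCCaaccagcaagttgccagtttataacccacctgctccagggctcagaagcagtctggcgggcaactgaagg
Itih3: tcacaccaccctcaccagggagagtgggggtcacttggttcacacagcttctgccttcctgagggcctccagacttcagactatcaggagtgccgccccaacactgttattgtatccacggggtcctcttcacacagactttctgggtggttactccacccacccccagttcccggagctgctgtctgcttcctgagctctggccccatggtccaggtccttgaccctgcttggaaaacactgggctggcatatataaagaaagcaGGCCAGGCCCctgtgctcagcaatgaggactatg
Itih1: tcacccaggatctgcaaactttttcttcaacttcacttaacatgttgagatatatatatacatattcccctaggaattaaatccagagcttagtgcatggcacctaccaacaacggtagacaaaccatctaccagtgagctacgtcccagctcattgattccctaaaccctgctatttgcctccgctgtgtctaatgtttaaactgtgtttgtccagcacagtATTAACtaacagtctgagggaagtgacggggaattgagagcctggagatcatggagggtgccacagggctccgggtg
Among the 9 windows, the STAT letters occurred in that of Itih4, as TTCCGAGAA beginning 51 bases before the start, and the CTGGGAA letters in that of Lrg1, beginning 102 bases before the start. Of all 32851 promoter windows of this length, 8.3% held the STAT letters and 11.1% held CTGGGAA. The NF-kappaB motif, in capitals in Lrg1, Itih4 and Itih3, occurred in 50.8% of all windows. The HNF1 letters, in capitals in Itih1 as ATTAAC on the other strand, occurred in 7.1%. The C/EBP letters stood in 10.8% of all windows and the AP-1 letters in 5.2%, and neither occurred in the 4 sequences shown. Among the windows not shown, the C/EBP letters occurred in those of Hpx, Cp and Itih2, and the AP-1 letters in that of Itih2. The HNF1 letters also occurred in windows of Cp and Pzp, and the NF-kappaB motif in a window of Cp. No matches overlapped each other in the 4 windows shown. A match to such letters is a description and shows no binding.

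The 6 arrays had medians of 5.42 to 5.48 over 35556 probe sets, with single values from 0.94 up to 14.06. The first principal component (31.6% of the variance over 19938 genes) separated IL-6 from saline arrays. The second (23.1%) placed IL-6 replicate 3 and saline replicate 2 away from the other arrays. The feedback gene Socs3, an inhibitor of JAK-STAT signalling, read 9.57, 9.45 and 9.63 in IL-6 arrays, against 6.61, 6.42 and 6.18 in saline arrays. Alb, the albumin gene and a defining hepatocyte transcript, read 13.41, 13.45 and 13.40 in IL-6 arrays, against 13.39, 13.36 and 13.40 in saline arrays.

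At 1 h after IL-6, none of the 10 genes passed the test over all genes, and the largest differences were those of Lrg1 and Itih4. Lrg1 had a difference of 0.72 (1.65-fold, limma adjusted p = 0.0614) and Itih4 one of 0.57 (1.48-fold, limma adjusted p = 0.110). Hp and Itih3 followed at 0.23 each, and the other 6 lay between -0.06 and 0.20. In limma 0 of 10 were called higher and 0 lower at an adjusted p under 0.05, where 0.386% of all genes were called higher and 0.0351% lower. At an unadjusted limma p under 0.05, 4 of 10 were higher (Lrg1, Itih4, Hp and Itih3) and 0 lower, where 3.78% of all genes were higher and 2.83% lower. In 6 of 10 the 3 IL-6 arrays lay above the 3 saline arrays, as held for 6.15% of all genes, and in 0 of 10 they lay below, as held for 5.48%. Differences were above 0 in 9 of 10, where 51.1% of all genes had one above 0. The median difference was 0.18, against 0.003 over all genes tested. The smallest two-sided p of an exact permutation test with 3 arrays in each group is 0.1, and this was its value for each of the 6 genes whose groups did not overlap.

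**Figure D1:**
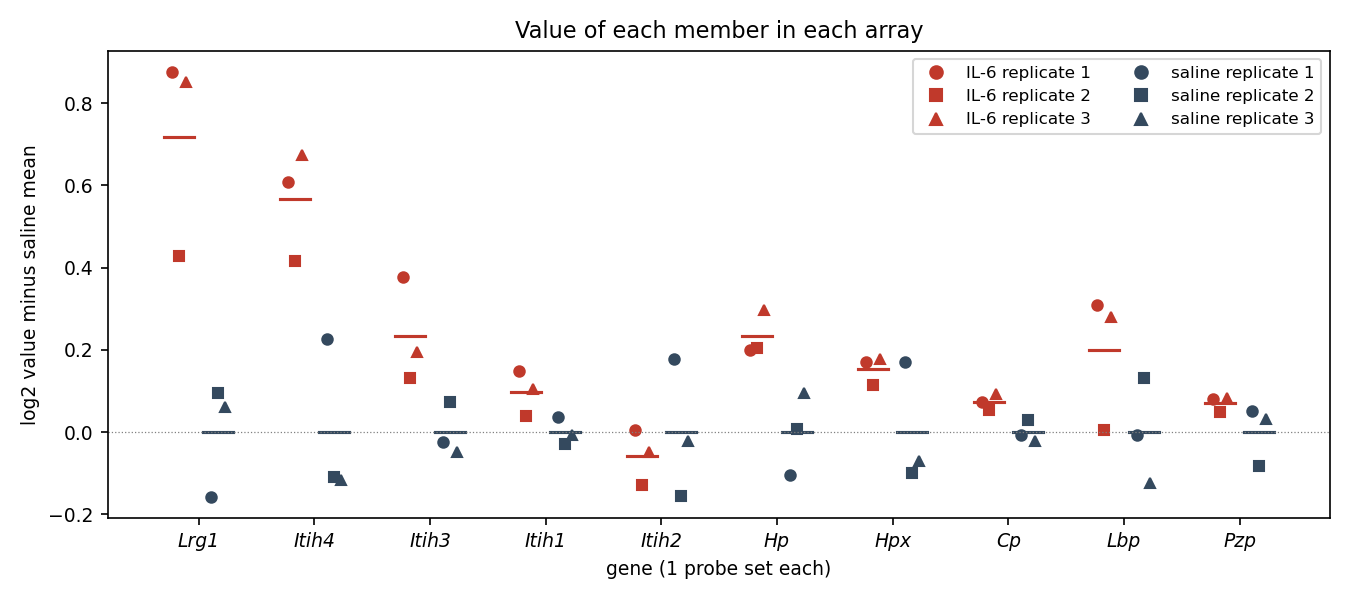
Log2 value of each of the 10 genes in each array, minus the gene's saline mean (vertical axis, log2 units). Red symbols are the 3 IL-6 arrays and dark symbols the 3 saline arrays, the symbol shape gives the replicate, and bars are group means. In Lrg1 and Itih4 the IL-6 arrays lie 0.42 to 0.88 above the saline mean, and in Itih2 they overlap the saline arrays.

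**Figure D2:**
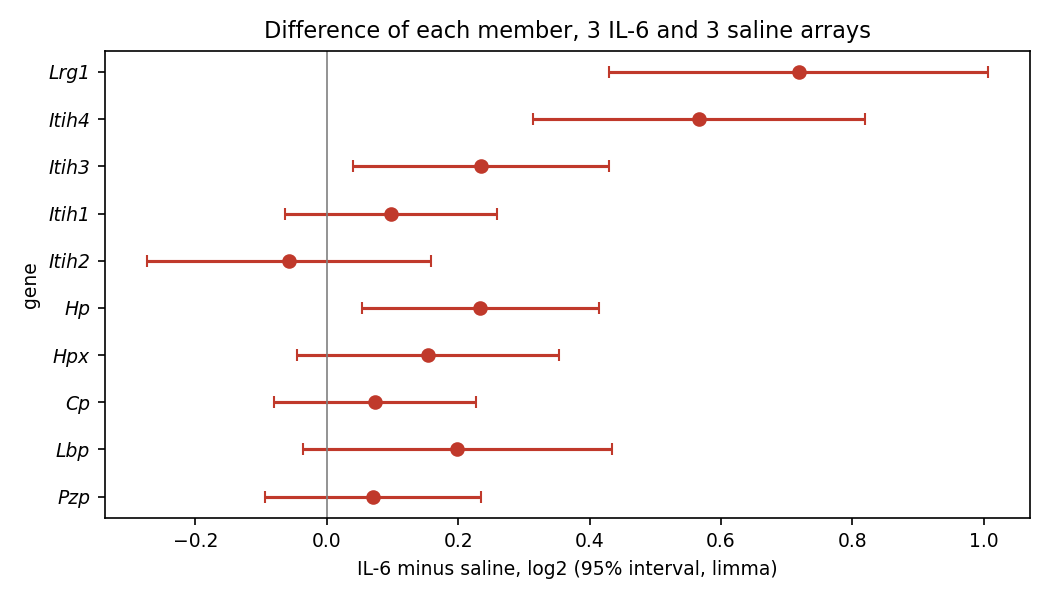
Difference between IL-6 and saline arrays for each gene (horizontal axis, log2 units), with limma's 95% interval, n = 3 arrays in each group. The intervals of Lrg1, Itih4, Itih3 and Hp lie above 0, and those of the other 6 genes include it.

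Lrg1 encodes a leucine-rich glycoprotein secreted by hepatocytes and also made by neutrophils, and in mice it has been described to modify TGF-beta signalling in endothelium through the co-receptor endoglin. It read 10.89, 10.44 and 10.86 in IL-6 arrays, against 9.86, 10.11 and 10.07 in saline arrays. All IL-6 arrays were above all saline arrays, by a gap of 0.33 between the nearest ones, and IL-6 replicate 2 was clearly the lowest of its group. The mean was 10.73 ± 0.25 in IL-6 arrays and 10.01 ± 0.14 in saline arrays (SD, n = 3 each). The difference was 0.72 ± 0.13 (standard error), with a 95% interval of 0.43 to 1.01, or 1.35-fold to 2.01-fold, not adjusted for the number of genes. It ranked 95 of 19938 by p-value and 64 by size of rise. Lrg1 passed the threshold in 5 of 16 alternatives, among them limma without IL-6 replicate 2 (difference 0.86, adjusted p = 0.0145), when genes under the 25th percentile of level were left out (adjusted p = 0.0402), and with a variance prior that follows the mean level (adjusted p = 0.0197). Over all 16 alternatives its limma adjusted p ran from 0.0145 to 0.448.

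Itih4 encodes the ITIH family member that is not joined to bikunin and that is described as an acute-phase protein in several mammals. It read 12.04, 11.85 and 12.10 in IL-6 arrays, against 11.66, 11.32 and 11.31 in saline arrays. All IL-6 arrays were above all saline arrays, with a gap of 0.19, and saline replicate 1 stood above the other saline arrays. The mean was 11.995 ± 0.13 in IL-6 arrays and 11.43 ± 0.20 in saline arrays (SD, n = 3 each). The difference was 0.57 ± 0.11, with a 95% interval of 0.31 to 0.82. Without saline replicate 1 it passed (difference 0.68, limma adjusted p = 0.0347), as it did with the variance prior that follows the mean level (limma adjusted p = 0.0376), and its limma adjusted p ran from 0.0275 to 0.651 over the alternatives.

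Itih3, Itih1 and Itih2 encode the heavy chains that are joined to bikunin. Itih3 read 12.02, 11.78 and 11.84 in IL-6 arrays, against 11.62, 11.72 and 11.60 in saline arrays. The groups did not overlap, with a gap of 0.06, and the difference was 0.23 ± 0.09 (95% interval 0.04 to 0.43, limma adjusted p = 0.626). Itih1 read 10.85, 10.74 and 10.80 in IL-6 arrays, against 10.74, 10.67 and 10.69 in saline arrays. These groups were separated by only 0.004, and the difference was 0.10 ± 0.07 (95% interval -0.06 to 0.26). Itih2 read 11.49, 11.36 and 11.44 in IL-6 arrays, against 11.66, 11.33 and 11.46 in saline arrays. It was the gene of the set with a negative difference, -0.06 ± 0.10 (95% interval -0.27 to 0.16), its groups overlapped throughout, and without saline replicate 1, its highest array, the sign turned to 0.03.

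Itih4, Itih3 and Itih1 lie next to each other on chromosome 14 with no other gene of the RefSeq table between them, and Itih2 lies on chromosome 2. The ITIH genes were therefore set against each other within each array, in 6 pairs chosen after the values were seen. The absolute size of such a within-array difference has no meaning across probe sets, and only its change between groups is used. Itih4 minus Itih2 was 0.55, 0.49 and 0.67 in IL-6 arrays, against -0.008, -0.01 and -0.15 in saline arrays, a change of 0.62. Itih4 minus Itih1 was 1.19, 1.11 and 1.30 in IL-6 arrays, against 0.92, 0.65 and 0.62 in saline arrays, a change of 0.47. Neither pair overlapped between groups. Itih4 minus Itih3 changed by 0.33 and did overlap, as did Itih3 minus Itih1, which changed by 0.14. Itih3 minus Itih2 and Itih1 minus Itih2 changed by 0.29 and 0.16 without overlap. The 6 pairs reuse the same genes and are not independent. The share of other gene pairs without overlap was not computed, so the separations are a description. The exact two-sided permutation p was 0.1 for each of the 4 pairs without overlap, the smallest that 3 against 3 arrays can give, and 0.15 after Benjamini-Hochberg adjustment over the 6 pairs. No pair could reach 0.05 in this design, so these p-values do not bear on whether the ITIH genes differed in their change.

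Among the carriers of hemoglobin, heme and copper, Hp had the largest difference. Hp read 12.53, 12.54 and 12.63 in IL-6 arrays, against 12.23, 12.34 and 12.43 in saline arrays. All IL-6 arrays lay above all saline arrays, with a gap of 0.10, and the difference was 0.23 ± 0.08 (95% interval 0.05 to 0.41, or 1.04-fold to 1.33-fold, limma adjusted p = 0.570). Hpx read 12.76, 12.71 and 12.77 in IL-6 arrays, against 12.76, 12.49 and 12.53 in saline arrays. Saline replicate 1 was as high as the IL-6 arrays, so the groups overlapped, and the difference was 0.15 ± 0.09 (95% interval -0.05 to 0.35, limma adjusted p = 0.855). Without saline replicate 1 the difference of Hpx was 0.24, with a limma adjusted p of 0.602. Cp read 11.76, 11.74 and 11.78 in IL-6 arrays, against 11.68, 11.72 and 11.67 in saline arrays. The groups were 0.02 apart, within-group spread was small (SD 0.02 in IL-6 arrays and 0.03 in saline arrays), and the difference was 0.07 ± 0.07 (95% interval -0.08 to 0.23, limma adjusted p = 0.931). Limma draws each gene's variance toward that of all genes, so the standard error of Cp is larger than its SDs alone would give. The interval of Cp reaches no further than a 1.17-fold rise.

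Lbp read 10.79, 10.49 and 10.76 in IL-6 arrays, against 10.48, 10.61 and 10.36 in saline arrays. IL-6 replicate 2 lay among the saline arrays, and the difference was 0.20 ± 0.10 (95% interval -0.04 to 0.43, limma adjusted p = 0.832). Without IL-6 replicate 2 it was 0.30, with a limma adjusted p of 0.659. Pzp read 12.60, 12.57 and 12.60 in IL-6 arrays, against 12.57, 12.44 and 12.55 in saline arrays. The groups only just overlapped, and the difference was 0.07 ± 0.07 (95% interval -0.09 to 0.23, limma adjusted p = 0.941). For these as for the other genes a p over the threshold does not show that the groups were alike.

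Inspection of the arrays showed a shared feature. In 9 of the 10 genes, all but Hp, IL-6 replicate 2 was the lowest of the 3 IL-6 arrays, which held for 32.1% of all genes tested. Averaged over the 10 genes and relative to the saline mean, that array stood at 0.13, where IL-6 replicates 1 and 3 stood at 0.28 and 0.27. The saline arrays averaged 0.04, -0.01 and -0.02. The feature was not particular to this set. IL-6 replicate 2 was also lowest of its group in the mean of 20 other positive acute-phase proteins (1.04, against 1.13 and 1.39). The same held for 13 genes of the IL-6 receptor and STAT3 pathway (0.56, against 0.63 and 0.63). It did not hold for 12 transcription factors described at acute-phase promoters (0.11, against 0.10 and 0.20). In IL-6 replicate 2 the 13 Kupffer cell and macrophage markers averaged 0.28 above their saline mean, against 0.004 and 0.04 in IL-6 replicates 1 and 3. The 11 hepatocyte markers averaged -0.01 there, within the range of the other 5 arrays (-0.03 to 0.05). The part of cell composition in the lower values of that array was not tested. In whole liver, fewer cells of a type and less RNA per cell cannot be told apart.

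The partners of these proteins were read from gene lists of 7 to 16 measured genes, beside the 0.386% of all genes called higher and 0.0351% called lower. Of 16 genes of heme and hemoglobin clearance and breakdown, 1 was called higher, Hmox1, which encodes the inducible enzyme that opens the heme ring, and the list median was -0.02. Hmox1 read 7.52, 7.91 and 7.83 in IL-6 arrays, against 7.09, 6.78 and 6.86 in saline arrays, a difference of 0.85 ± 0.12 (limma adjusted p = 0.0170). The receptors for the complexes of haptoglobin and hemopexin, Cd163 and Lrp1, had differences of 0.06 ± 0.17 and 0.19 ± 0.09, with limma adjusted p of 0.977 and 0.768. Of 13 genes of copper supply and ferroxidases 1 was called higher, the metallothionein gene Mt1 (1.04 ± 0.17, limma adjusted p = 0.0385), and the list median was 0.04. Mt2, its neighbour in the family, had 1.46 ± 0.29 (limma adjusted p = 0.103), and Atp7b, which loads copper into ceruloplasmin, had 0.12 ± 0.09 (limma adjusted p = 0.899).

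Of 11 genes of lipopolysaccharide recognition and Lbp-like lipid transfer, 2 were called higher, Myd88 and Tirap. Myd88, an adaptor of Toll-like receptors, read 7.83, 7.79 and 7.96 in IL-6 arrays, against 7.35, 7.10 and 7.14 in saline arrays, a difference of 0.67 ± 0.09 (limma adjusted p = 0.0138). Tirap, which links Toll-like receptors to MyD88, read 7.61, 7.41 and 7.68 in IL-6 arrays, against 6.98, 7.11 and 6.99 in saline arrays, a difference of 0.54 ± 0.09 (limma adjusted p = 0.0445). Cd14, to which Lbp hands lipopolysaccharide, had 0.03 ± 0.08 and Tlr4 had -0.11 ± 0.13, with limma adjusted p of 0.977 and 0.947. The signalling genes Ticam1, Ticam2, Irak1 and Traf6 had 0.07, -0.08, 0.08 and 0.02, none of them called, and the list median was 0.03. Pltp, a lipid transfer protein related to Lbp, had 0.58 ± 0.22 with overlapping groups (limma adjusted p = 0.636). Bpi, another relative of Lbp, had -0.14 ± 0.12 (limma adjusted p = 0.920). Its means were low, 3.85 in IL-6 arrays and 3.99 in saline arrays. On leaving out single arrays, the limma calls of Myd88 and of Hmox1 held in 2 of 6 cases and those of Tirap and Mt1 in 1 of 6, with adjusted p up to 0.246, 0.332, 0.287 and 0.254 over all alternatives. Without IL-6 replicate 3 and saline replicate 2 together, Mt1 was called and the other 3 were not.

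Of 12 genes of TGF-beta and endoglin signalling, which bear on Lrg1, 1 was called higher, Id3, an inhibitor of helix-loop-helix transcription factors, at 1.02 ± 0.12 (limma adjusted p = 0.00772). Its call held on leaving out each single array. It was lost without IL-6 replicate 3 and saline replicate 2 together and when every probe set was tested, with limma adjusted p up to 0.123. Id1, of the same family as Id3, had -0.26 ± 0.14 with overlapping groups (limma adjusted p = 0.836). Eng, the endoglin gene, had -0.02 ± 0.07 and Smad1, a signal transducer, 0.22 ± 0.09, neither called. Differences were above 0 in 7 of the 12 genes and below 0 in 5, and the list median was 0.04. Of 11 genes of hyaluronan and bikunin, none was called in limma, 0 had an unadjusted limma p under 0.05, and the median was 0.02. Cd44, a hyaluronan receptor, had -0.13 ± 0.10 and Lyve1, a hyaluronan receptor of sinusoids, -0.26 ± 0.20. Ambp, the gene of bikunin, read 12.07, 12.02 and 12.07 in IL-6 arrays, against 12.02, 11.998 and 11.99 in saline arrays (difference 0.05 ± 0.07), and Tnfaip6, whose product moves heavy chains to hyaluronan, had -0.03 ± 0.08. Of 7 genes of the macroglobulin and thioester family other than Pzp, 0 were called in limma and 0 had an unadjusted limma p under 0.05. Their median was -0.05, and the extremes were A2ml1 at 0.17 ± 0.08 and Mug2 at -0.12 ± 0.08.

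**Figure D3:**
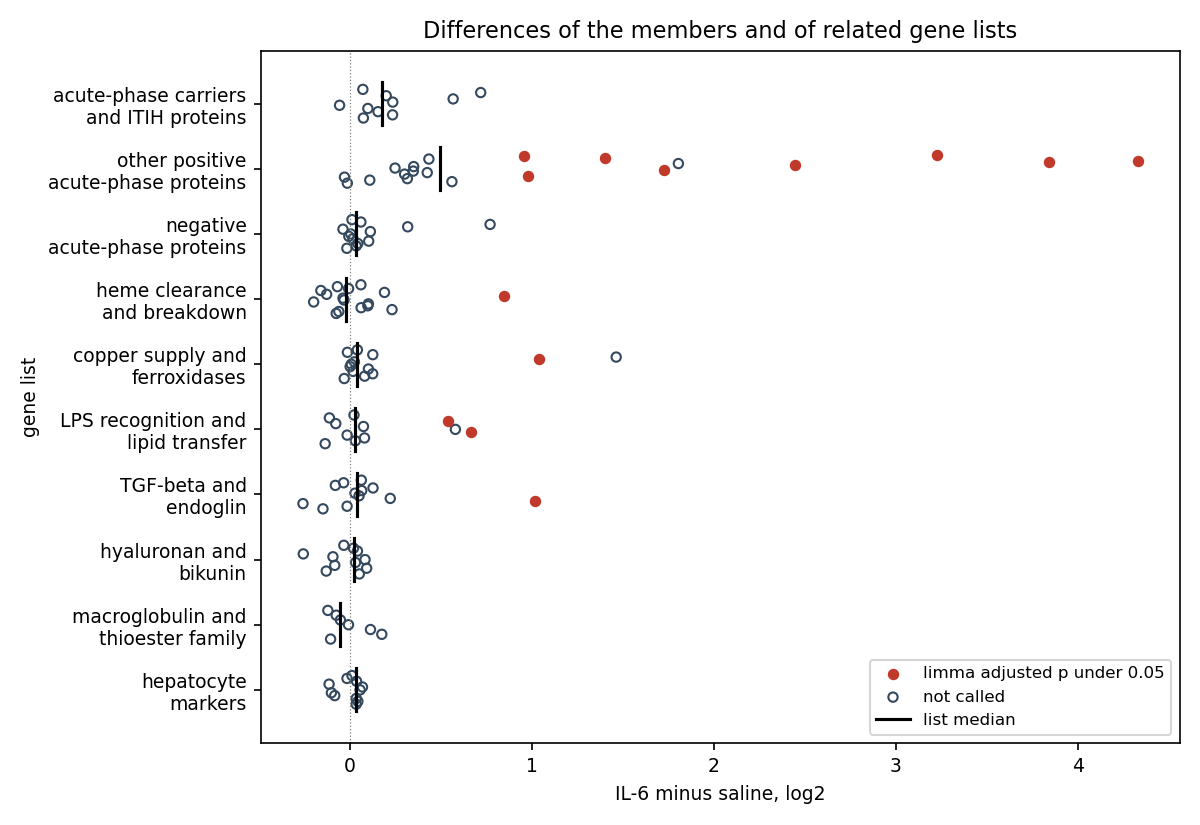
Difference between IL-6 and saline arrays (horizontal axis, log2 units) for each measured gene of the set and of related lists, 1 symbol per gene with n = 3 arrays in each group. Filled red symbols passed the limma test over all genes, open symbols did not, and black bars are list medians. The carriers and ITIH genes lie between -0.06 and 0.72 with a median of 0.18, and other positive acute-phase proteins reach 4.33 with a median of 0.50. The latter list includes Steap4, which encodes a membrane metalloreductase.

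Beside 20 other positive acute-phase proteins measured here, the carriers and ITIH genes had a smaller median difference. The lists started from unlike levels. Averaged over each list, saline arrays read 11.47 to 11.53 for the set and 8.81 to 9.03 for those 20. The part of this level in the smaller difference was not tested. Of those 20, 8 were called higher, where 0.386% of all genes were. In 16 the IL-6 arrays lay wholly above saline arrays, as held for 6.15% of all genes. The median difference was 0.50, with Saa2, Saa1 and Steap4 at the top (4.33, 3.84 and 3.23). Steap4, counted among these 20 and among the 8 called, encodes a membrane metalloreductase and not a secreted plasma protein. The counts and the median without Steap4 were not computed. Of 13 negative acute-phase proteins, 0 were called in limma in either direction, 1 had an unadjusted limma p under 0.05 (Serpina7, 0.77 ± 0.27, with overlapping groups), and the median was 0.03. These counts describe the lists, and the difference between lists was not tested. Of 13 measured genes of the IL-6 receptor and STAT3 pathway, 5 were called higher, among them Socs3, Pim1 and Bcl3 at 3.15, 1.52 and 1.18. The receptor genes Il6ra and Il6st had -0.20 ± 0.10 and 0.29 ± 0.08, and Stat3 had 0.52 ± 0.09 (limma adjusted p = 0.04996), a call kept in 1 of 6 cases on leaving out an array. Of 12 transcription factors described at acute-phase promoters, 2 were called higher, Onecut1 (0.64 ± 0.10) and Atf3 (0.58 ± 0.09), both kept in 1 of 6 such cases. Cebpb, a factor known at acute-phase promoters, had 0.38 ± 0.12 (limma adjusted p = 0.522).

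The genes whose pattern over the 6 arrays lay nearest to Lrg1 and Itih4 were found by the mean absolute difference of log2 values, each gene taken relative to its saline mean. Nearest to Itih4 was Apcs, the gene of serum amyloid P, an acute-phase protein of mice, at 0.04. Apcs read 8.39, 8.27 and 8.54 in IL-6 arrays, against 8.02, 7.79 and 7.71 in saline arrays (difference 0.56 ± 0.10, limma adjusted p = 0.0787). Gimap9 and Tnip2 followed at 0.05 and 0.07, and of these Tnip2, whose product binds an inhibitor of NF-kappaB signalling, was called in limma (0.59 ± 0.08, adjusted p = 0.0170). That call held in 2 of 6 cases on leaving out an array, with limma adjusted p up to 0.273 over the alternatives. Nearest to Lrg1 were Apol7c, Tle3 and Snx10 at 0.06, 0.08 and 0.09, with differences of 0.63, 0.61 and 0.55, none of them called. These likenesses rest on 6 arrays.

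Markers of other cells were read because Lrg1 and Hp are also made by neutrophils, and Hp by adipocytes. Of all genes, limma called 0.386% higher and 0.0351% lower. At an unadjusted limma p under 0.05, 3.78% of all genes were higher and 2.83% lower. Of 13 neutrophil markers 1 was called higher, S100a8, at 0.65 ± 0.09 (limma adjusted p = 0.0211), which kept its call in 1 of 6 cases on leaving out an array. Another, Ly6g, was lower at an unadjusted limma p under 0.05 (-0.27 ± 0.10, limma adjusted p = 0.655). Differences were negative in 7 of the 13, with a median of -0.008. The markers' mean level ran from 4.16 to 4.40 in IL-6 arrays and from 4.23 to 4.31 in saline arrays. These levels lay below the array medians of 5.42 to 5.48, so they are a weak reading of neutrophil content. Of 6 adipocyte markers 0 were called in limma, 1 was higher and 1 lower at an unadjusted p under 0.05, and their mean level ran from 5.35 to 5.42 in IL-6 arrays and from 5.27 to 5.501 in saline arrays. Of 11 hepatocyte markers 0 were called in limma and 0 had an unadjusted limma p under 0.05, with mean levels of 12.35 to 12.42 in IL-6 arrays and 12.35 to 12.43 in saline arrays. Kupffer cell markers ran from 6.50 to 6.77 in IL-6 arrays and from 6.41 to 6.53 in saline arrays, with 0 of 13 called in limma and 2 higher at an unadjusted p under 0.05. Their differences were above 0 in 12 of 13, where 51.1% of all genes had one above 0, and the median was 0.09. The level of 6.77 was that of IL-6 replicate 2. The remaining lists, endothelial cells, stellate cells, cholangiocytes, erythroid cells and lymphocytes, held 0 called genes in limma among 12, 11, 6, 4 and 9 markers, and 1 of these markers, the cholangiocyte gene Sox9 (0.41 ± 0.11), had an unadjusted limma p under 0.05. The part of other cells in the differences of Lrg1 and Hp was not tested.

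**Figure D4:**
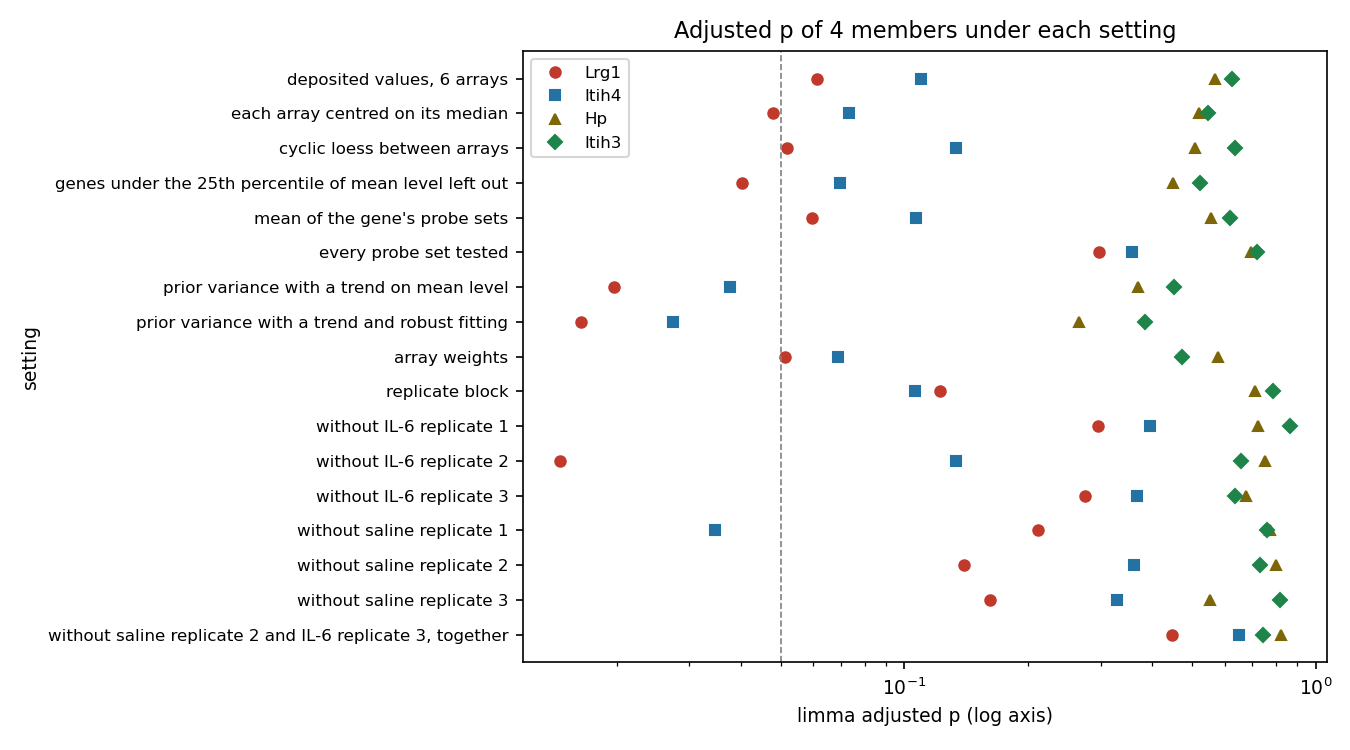
Limma adjusted p (horizontal log axis) of the 4 genes with the largest differences under each setting (rows), with the threshold of 0.05 as a dashed line. Lrg1 lies left of the line in 5 of 16 alternatives and Itih4 in 3, while Hp and Itih3 lie right of it in all of them.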

How the data were processed

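Per the labels, biotin-labelled total RNA of whole liver was read on Affymetrix arrays, 1 sample on each. The deposited values are log2 expression per probe set, and RMA is the tool that the submitters' processing notes name for them. RMA subtracts background, makes the arrays' distributions equal and combines probes, which can compress changes. Its settings were not given in the sources used here, nor was a genome build. No further normalization was applied to these log2 values, and scanner intensities were not used.

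Of 35556 probe sets, 21789 had exactly 1 gene symbol in the platform table, 1621 several, and 12146 were unlisted. Of those with 1 symbol, 21698 matched a RefSeq gene table on GRCm38.p6 by gene ID, and 0 symbols changed. Where a gene had more than 1 probe set (999 genes), the brightest on average was kept, which left 19938 genes, with no filter on level. IL-6 was compared with saline using lmFit and eBayes of limma 3.58.1 in R 4.3.3, two-sided, with Benjamini-Hochberg adjustment over all genes and a threshold of 0.05. The fit was tested on simulated data. The number of arrays limits the precision, with a median standard error of 0.089 over genes.

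Alternatives were median centring, cyclic loess, a filter on dim genes, averaging of probe sets per gene, every probe set, other variance priors, array weights, a replicate block and leaving out each array. Leaving out 2 arrays together was added after seeing the data. The members and lists were chosen with earlier results of these data known. Of other lists, up to 3 genes were named, starting with called ones by size and continuing by p-value, and Socs3, Stat3, Il6ra, Il6st and Alb were added with the 3 nearest patterns of 2 members. Cd163, Cd14, Tlr4, Ticam1, Ticam2, Irak1, Traf6, Eng, Ambp and Tnfaip6 are named as partners after their values were seen. The same holds for Bpi, named as a relative of Lbp. List genes that no probe set named alone were not analysed here. Protein motifs were not searched. Plots used matplotlib 3.10.9 (Python 3.11.15).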

Additional observations from a re-analysis of the deposited data

How the results depend on the processing

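The 10 genes were compared under 16 alternatives each. Of 160 such values 151 kept the sign and the side of the threshold, 8 passed where the deposited values with 6 arrays did not, and 1 changed sign, Itih2, which ran from -0.1354 to 0.0316 on leaving out 1 array, positive only without saline replicate 1. The count of members called higher, 0 with 6 arrays, was 1 after median centring and with dim genes left out, and 2 with a variance prior that follows the mean level, robust or not. On leaving out 1 array it ran from 0 to 1. The value of 1 came from Lrg1 without IL-6 replicate 2 and from Itih4 without saline replicate 1. In every setting limma called 0 members lower, and 0 were lower at an unadjusted p under 0.05. Over all genes, 77 were called higher and 7 lower. Testing every probe set gave 16 higher and 1 lower. That setting adjusted for 35556 tests in place of 19938 and also changed the variance prior, and the standard error of Lrg1 was 0.143 in it against 0.128 over genes. How much each contributed was not tested. Leaving out an array gave 45 to 67 higher and 3 to 5 lower. The count of higher genes moved most when saline replicate 3 (45 left), IL-6 replicate 1 (46 left) or IL-6 replicate 3 (46 left) was dropped, and that of lower genes when IL-6 replicate 1 (3 left) or saline replicate 2 (4 left) was dropped. Leaving out IL-6 replicate 3 and saline replicate 2 together gave 31 higher and 2 lower genes and 0 members called in limma, with fewer samples in the fit and 3 members higher at an unadjusted p under 0.05. For the other changed counts the cause was not tested. With the replicate number as a block, 59 genes were called higher and 6 lower, and 0 members, with limma adjusted p of 0.122 for Lrg1 and 0.106 for Itih4. Same-numbered arrays had correlations of deviations of 0.08, -0.12 and -0.09, and 2 of 6 arrays correlated best with their own number. These values gave no sign that the numbers pair the samples, and 6 arrays are too few to exclude it. Scaling moved the median difference of all genes by no more than 0.02. Signal over background was not assessed, since scanner intensities were not used here.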
